A study of Mus musculus with 8 samples.

Results

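This account covers 10 genes of glucose uptake and glycolysis in the mouse heart: the glucose transporters Slc2a1 (GLUT1) and Slc2a4 (GLUT4), the hexokinases Hk1 and Hk2, the phosphofructokinase Pfkm and its regulator Pfkfb2, the muscle enzymes Pgam2 and Eno3, and the lactate dehydrogenases Ldha and Ldhb. They are a named list, and their probes were found through the RefSeq accessions on the array. All 10 genes had at least 1 probe well above background on all 8 arrays, and they are 10 of the 21412 genes and unnamed features that were measured. Heart RNA of male C57BL6 mice was profiled on 8 1-colour arrays, 4 labelled control and 4 labelled dtg; each array is 1 sample and is called a heart here. Control mice carried Cre recombinase without the floxed IGF-1R allele, and dtg mice carried merCremer/+ with IGFloxP/IGFloxP, in which merCremer is a Cre that 4OH-Tamoxifen activates. At 8 months of age, over 10 days, 4OH-Tamoxifen was given (500 µg), with removal of exon 3 of the receptor gene as the aim, and hearts were taken 6 weeks later. The labels' protocols give 1 treatment for all samples, so both groups carried Cre and were treated. The promoter that drives merCremer is not named in the labels, and cells without active Cre would keep the receptor. The labels do not say that each sample is a separate animal, so the p-values measure only how far these samples differ, part of which may be technical.

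The heart takes up glucose through GLUT1, which sits at the cell surface at rest, and GLUT4, which moves there from stores inside the cell when insulin or contraction calls for it. Hexokinase traps the sugar as glucose 6-phosphate, phosphofructokinase commits it to glycolysis, and lactate dehydrogenase interconverts pyruvate and lactate at the end of the path. Several steps have forms that prevail in muscle (Slc2a4, Hk2, Pfkm, Pgam2, Eno3) beside forms found in most tissues. Insulin and IGF-1 signalling acts on this path largely through protein traffic and enzyme activity, which RNA levels do not show.

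RefSeq promoter windows (build GRCm38.p6, from 250 bases before to 50 after a transcript start) were at hand for 9 of the 10 genes, with 16 windows in all. The 3 windows printed here were picked to show how differently such windows are built: the first Ldha window and that of Hk2, both known targets of the hypoxia factor, hold ACGTG, the core of the hypoxia response element, and Pgam2, a muscle enzyme, has a match to the MEF2 consensus, a binding pattern of muscle transcription factors. Capitals mark ACGTG or GCGTG, or their reverse complements, in Ldha and Hk2, and the MEF2 consensus match in Pgam2.
Ldha (chr7:46845554-46845853, + strand): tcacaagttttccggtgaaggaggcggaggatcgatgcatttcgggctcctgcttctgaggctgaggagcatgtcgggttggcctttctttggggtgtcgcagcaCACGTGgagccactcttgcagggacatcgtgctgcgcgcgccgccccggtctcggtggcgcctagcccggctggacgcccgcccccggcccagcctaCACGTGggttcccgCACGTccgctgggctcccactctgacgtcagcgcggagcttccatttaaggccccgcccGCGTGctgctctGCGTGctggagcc
Hk2 (chr6:82774405-82774704, - strand): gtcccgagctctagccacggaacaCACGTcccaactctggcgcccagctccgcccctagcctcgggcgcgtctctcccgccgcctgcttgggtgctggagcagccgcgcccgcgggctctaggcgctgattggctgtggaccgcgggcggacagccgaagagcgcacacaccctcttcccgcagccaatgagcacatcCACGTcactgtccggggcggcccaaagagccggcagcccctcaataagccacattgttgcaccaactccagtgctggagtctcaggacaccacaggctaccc
Pgam2 (chr11:5803747-5804046, - strand): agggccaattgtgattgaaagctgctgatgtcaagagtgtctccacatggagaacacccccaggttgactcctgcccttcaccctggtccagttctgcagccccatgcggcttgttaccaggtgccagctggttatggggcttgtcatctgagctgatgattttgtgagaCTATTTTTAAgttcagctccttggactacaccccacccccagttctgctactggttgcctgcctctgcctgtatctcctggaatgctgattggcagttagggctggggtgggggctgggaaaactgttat
The Ldha window held CACGTG at 2 places, which contains ACGTG on both strands, and ACGTG outside it at 1 place, with GCGTG at 2. In the Hk2 window ACGTG was found at 2 places and GCGTG at 0, and the second Ldha window held ACGTG at 0 places and GCGTG at 2. These letters do not set the 2 genes apart among the 10: ACGTG or GCGTG was in 13 of the 16 windows, against 43.8% of all windows, and the MEF2 consensus in 1 of 16. Windows of the same gene can overlap, as for Pfkm, so the 16 are not independent. The share of G and C ran from 36.7% to 67.3% in these windows (67.3% in the printed Ldha and Hk2 windows). Its median was 52.7% over all windows, and its part in the count was not tested. On either strand, ACGTG was found in 19.6% of all 32851 promoter windows, GCGTG in 32.4%, CACGTG in 7.15% and the MEF2 consensus in 3.19%. GTAAACA, the core that FoxO factors bind downstream of insulin signalling, was in 3.65% of all windows and in 0 of the 16 windows of these genes. A match is a description of letters and not of a bound site.

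The tissue label, heart, was borne out by markers of heart muscle, which were not used to tell ventricle from atrium. All 10 markers listed were measured, and their summed signal ran from 3509 to 3788 times the 75th percentile of the array in controls and from 3460 to 3798 times in dtg hearts. For the cardiac myosin Myh6, control hearts averaged 8.89 ± 0.04 (SD, n = 4) and dtg hearts 8.86 ± 0.04 (SD, n = 4) in log2 signal. Of 15 skeletal muscle markers 9 were measured, among them Acta1 at a mean of 5.16 and Atp2a1 at 3.12 in controls, and 6 were not kept (Myh1, Myh2, Myh4, Mylpf, Actn3 and Myod1). The 9 had a median difference of -0.20, with 7 lower in dtg hearts. Atrial markers differed widely within both groups, with sums from 64.3 to 688 in controls and from 75.1 to 529 in dtg hearts, and 9 of 10 had a lower mean in dtg hearts (median difference -0.55). All 5 erythroid markers measured had a higher mean there (median 0.42; Hbb-b2 0.50, unadjusted p = 0.0454 by limma). Of 12 smooth muscle and pericyte markers, 8 had a lower and 4 a higher mean in dtg hearts. Among them the smooth muscle gene Acta2 was lower in all dtg than in all control hearts (-0.37, SE 0.11, unadjusted p = 0.00842 and adjusted p = 1 by limma). Of all features, 0.182% were likewise lower in all dtg hearts. The part of these cell types in the results was not tested. The arrays lay on 2 slides with 2 control and 2 dtg hearts each (controls 1 and 2 with dtg 1 and 4 on slide 1). Control 4, dtg 3 and dtg 4 were set apart in earlier work on these data, and values without them are given where they matter. By mean correlation with the other arrays control 4 (0.980), control 3 (0.981) and dtg 3 (0.981) were lowest, and all lay between 0.980 and 0.987. Signal for Igf1r itself ran from 0.18 to 1.04 in controls and from -0.30 to 0.40 in dtg hearts, with overlap (difference -0.43, SE 0.24, adjusted p = 1 by limma). Where its probe lies relative to exon 3 is not known here, so it does not check the labels.

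None of the 10 genes differed between dtg and control hearts beyond the spread of the samples. The differences in mean log2 signal, dtg minus control, lay between -0.12 for Slc2a1 and 0.13 for Pfkfb2, with 5 above and 5 below 0 and a median of 0.0093; of all features 44.7% were lower in dtg hearts. Limma called 0 of the 10 after Benjamini-Hochberg adjustment over all features, and 0 reached an unadjusted p under 0.05. The background was just as empty: 0% of the 21412 features passed the adjusted threshold and 0.743% an unadjusted p under 0.05, with a median difference of 0.015. A share near the threshold itself would arise with no differences at all, so the p-values of these data run high. The 0 of 10 under 0.05 is therefore near what the background gives and does not show equal levels. Control and dtg values overlapped for all 10 genes, where 0.518% of all features did not overlap. The median SD within groups was 0.16 for the 10 genes against 0.26 for all features. Some of those features were well above background on fewer than 8 arrays. By range over the 8 hearts, Slc2a1, Hk2 and Eno3 lay above 72.5%, 58.3% and 51.1% of features with a symbol. The 95% intervals of the 10 genes differed in width. The interval of Ldhb ran from 0.853-fold to 1.15-fold and that of Pfkm from 0.874-fold to 1.18-fold, while the widest, that of Slc2a1, ran from 0.628-fold to 1.35-fold. Signs of such small differences depended on the processing. With normexp background correction all 10 lay above 0, between 0.065 and 0.34. Once spots darker than their local background were left out of that correction, 5 lay above and 5 below 0 again. With quantile normalization 7 lay below 0, and with median scaling 9 did.

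**Figure D1:**
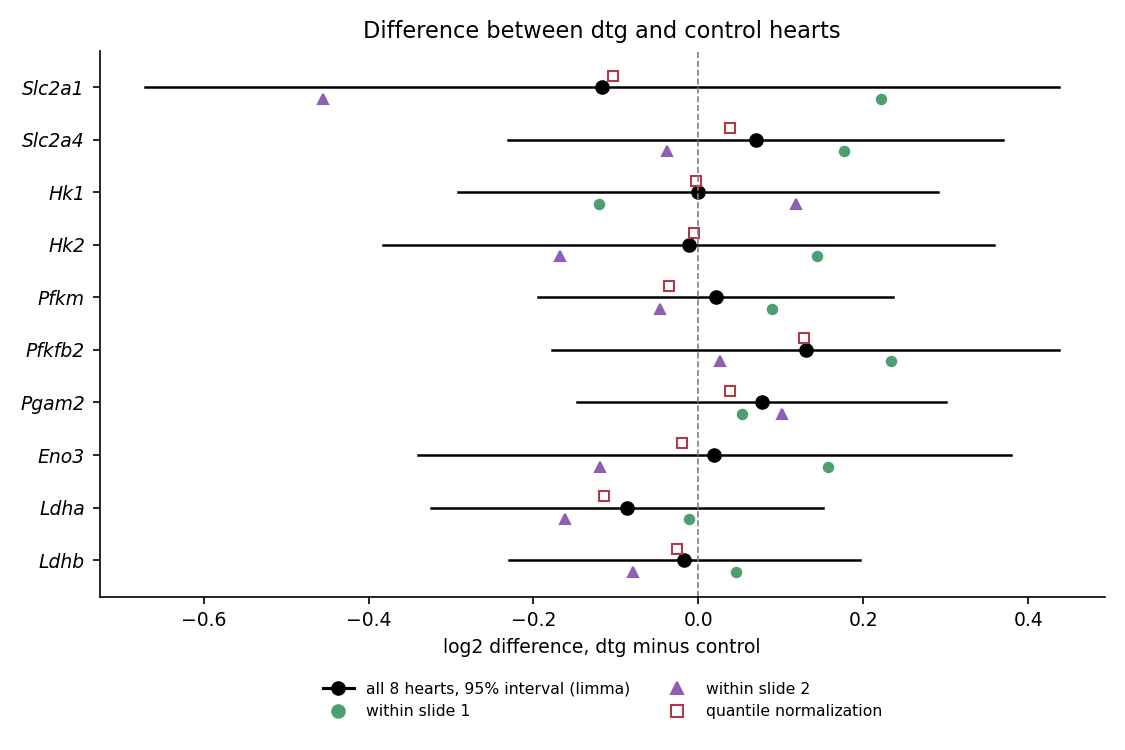
Log2 difference in signal, dtg minus control, for each of the 10 genes (black point, all 8 hearts, with limma's 95% interval as a bar), with the differences within slide 1 (green circle) and slide 2 (purple triangle) and after quantile normalization (open square). All 10 intervals include 0, and Slc2a1 has the widest one, from -0.67 to 0.44.

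In what follows a level is the log2 signal of a gene's probe minus the 75th percentile of the array, so that 0 is the 75th percentile and 1 more is a doubling. Probes differ in how well they bind, and levels of different genes are not ranked. No spot was saturated on any array. Transporters came first on the path. GLUT1 (Slc2a1), the transporter of most cell types including endothelium, had levels of 0.65, 0.71, 0.89 and 1.51 in controls 1 to 4 and of 0.53, 0.91, 0.58 and 1.27 in dtg 1 to 4. Control 4 and dtg 4 were high and the other 6 hearts lay together below 1, in both groups. Controls averaged 0.94 ± 0.40 (SD, n = 4) and dtg hearts 0.82 ± 0.34 (SD, n = 4), which differ by -0.12 (SE 0.24). Slide 1, which holds dtg 4, gave 0.22 and slide 2, which holds control 4, gave -0.46. The value was 0.074 without control 4 and -0.27 without dtg 4. Without control 4, dtg 3 and dtg 4 it was -0.076, in a fit that has slide as a block. Control 4 and dtg 4 also had the lowest 75th percentiles of signal, 680 and 704 intensity units against 794 to 946 in the others, and the highest sums of atrial markers, 688 and 529, although control 3, where Slc2a1 was not high, had 514. The sum of 11 endothelial markers was 229 in control 4 and 186 in dtg 4, with the other hearts between 176 and 200. The part of these in the Slc2a1 values was not tested. The pattern was also there after quantile normalization, with control 4 and dtg 4 the highest at 11.09 and 10.93 log2 units and the rest between 10.20 and 10.56. With median scaling control 4 was highest at 5.10, but control 3 (4.48) lay above dtg 4 (4.47). With normexp background correction control 4 was the lowest heart, at 0.41 against 0.58 to 0.95. With dark spots left out of that correction, control 4 and dtg 4 were highest again, at 1.52 and 1.32.

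GLUT4 (Slc2a4), the insulin-responsive transporter of muscle and fat, was measured on 10 spots per array. Its levels were 5.85, 5.91, 6.04 and 6.32 in controls 1 to 4 and 5.96, 6.10, 6.19 and 6.16 in dtg 1 to 4. The dtg values all lay inside the control range. Group means were 6.03 ± 0.21 and 6.10 ± 0.10 (SD, n = 4 each), a difference of 0.070 (SE 0.13, 95% interval 0.852-fold to 1.29-fold). The SD among the 10 spots of one array was between 0.040 and 0.080. On slide 1 alone the value was 0.18 and on slide 2 alone -0.038. Adipocytes also make GLUT4; of 10 adipocyte markers 9 were measured, with 3 higher and 6 lower in dtg hearts (median difference -0.22), and their part in the Slc2a4 values was not tested.

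The hexokinases showed different hearts standing out. Hk1, the form found in most tissues, lay between 4.71 and 4.81 in the 4 control hearts and at 4.80, 4.93 and 4.89 in dtg 1 to 3, but at 4.45 in dtg 4. Controls averaged 4.77 ± 0.04 (SD, n = 4) and dtg hearts 4.77 ± 0.22 (SD, n = 4), with a difference of -0.00070 (SE 0.13) that became 0.10 without dtg 4. A second Hk1 probe was also lowest in dtg 4, at -0.31 against 0.27 to 0.58 in the other 7 hearts, and dtg 4 was lowest after quantile normalization too. With normexp background correction control 4 was the lowest instead, and with the dark spots left out of that correction dtg 4 was the lowest again. Hk2, the insulin-responsive form of muscle, had levels of 3.44, 3.72, 3.73 and 4.19 in controls 1 to 4 and 3.69, 3.71, 3.87 and 3.76 in dtg 1 to 4. The dtg hearts were close together and the controls spread to both sides of them. Group means were 3.77 ± 0.31 and 3.76 ± 0.08 (SD, n = 4 each), a difference of -0.012 (SE 0.16), or 0.13 without control 4, 0.14 on slide 1 and -0.17 on slide 2.

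**Figure D2:**
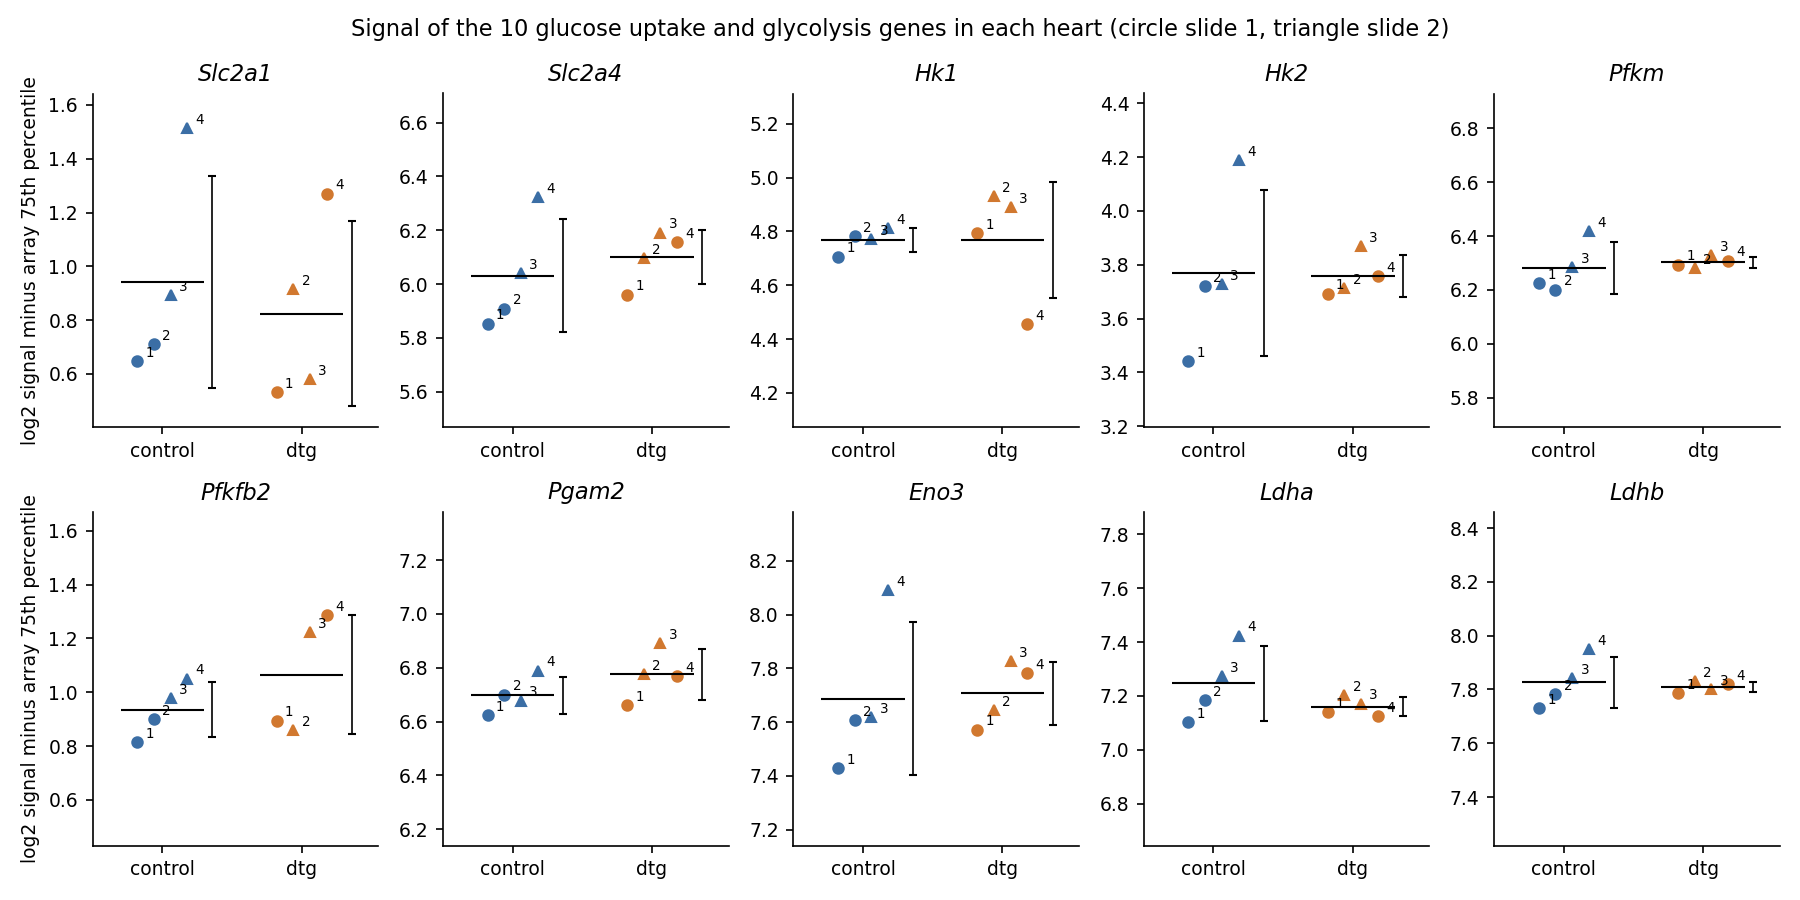
Log2 signal minus the 75th percentile of the array in each heart, 1 panel per gene with the same height of scale, controls in blue and dtg in orange, numbered by replicate (circle for slide 1, triangle for slide 2). Lines are group means and bars are SD (n = 4); control and dtg values overlap in all 10 panels, and control 4 is the highest heart in 7 of them.

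Phosphofructokinase and its regulator behaved differently from each other. Pfkm, the muscle subunit, was among the least variable genes with the 75th percentile scaling, as an average of 10 spots per array. Its level ran from 6.20 to 6.42 in controls and from 6.28 to 6.33 in dtg hearts, and 2.16% of features with a symbol had a narrower range over the 8 hearts. That range was 0.22, against 0.20 with quantile normalization, 0.64 with median scaling and 1.65 with normexp background correction. Group means were 6.28 ± 0.10 and 6.30 ± 0.02 (SD, n = 4 each), a difference of 0.021 (SE 0.09). The 10 spots of its probe had an SD between 0.031 and 0.055 on one array. Pfkfb2, the cardiac kinase and phosphatase that sets fructose 2,6-bisphosphate, had levels of 0.81, 0.90, 0.98 and 1.05 in controls 1 to 4 and 0.89, 0.86, 1.22 and 1.29 in dtg 1 to 4. Dtg 3 and dtg 4 lay above all controls, and dtg 1 and dtg 2 lay among them. The difference of 0.13 (SE 0.13) was the highest of the 10 and had an adjusted p of 1 by limma. Slide 1 gave 0.23 and slide 2 gave 0.026. The 5 hearts left after removing control 4, dtg 3 and dtg 4 gave -0.030 in a fit that has slide as a block.

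The muscle enzymes of lower glycolysis gave bright signals. Pgam2, the muscle phosphoglycerate mutase, ran from 6.62 to 6.79 in controls and from 6.66 to 6.89 in dtg hearts (difference 0.077, SE 0.10). Eno3, the muscle enolase, had levels of 7.43, 7.61, 7.62 and 8.09 in controls 1 to 4 and 7.57, 7.65, 7.83 and 7.78 in dtg 1 to 4, again with the dtg hearts inside the control range. The Eno3 means were 7.69 ± 0.28 and 7.71 ± 0.12 (SD, n = 4 each), a difference of 0.019 (SE 0.16), with 0.16 on slide 1 and -0.12 on slide 2. Eno3, Hk2 and Slc2a4 were lowest in control 1 and highest in control 4, also with quantile normalization and median scaling, but with normexp background correction control 4 was the lowest heart of each. Ldha and Ldhb were also lowest in control 1 and highest in control 4 with the 75th percentile. With quantile normalization Ldha was still highest in control 4 but lowest in dtg 4. Ldhb was then highest in control 3 and lowest in dtg 3.

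Lactate dehydrogenase is built from the subunits that Ldha (M, prevalent in skeletal muscle) and Ldhb (H, prevalent in heart) encode. Ldha had levels of 7.10, 7.18, 7.27 and 7.42 in controls 1 to 4 and 7.14, 7.20, 7.17 and 7.12 in dtg 1 to 4. Ldhb had levels of 7.73, 7.78, 7.84 and 7.95 in controls and 7.79, 7.83, 7.80 and 7.82 in dtg hearts. For both genes the dtg hearts lay in a narrow band, with SDs of 0.03 and 0.02 (n = 4), inside a control range with SDs of 0.14 and 0.09 (n = 4). This held with the 75th percentile but not with quantile normalization, where Ldha ran from 16.86 to 16.95 in controls and from 16.62 to 16.89 in dtg hearts, and Ldhb from 17.46 to 17.54 and from 17.41 to 17.53. Differences were -0.086 (SE 0.10) for Ldha and -0.017 (SE 0.09) for Ldhb. The spread of the 2 groups was not tested against each other.

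Other probes of Ldha and Hk1 did not all follow the one used. The Ldha probe used had its highest heart in control 4, at 7.42. The third Ldha probe was low in control 4 and dtg 4, at 1.53 and 1.38, with the other 6 hearts between 2.10 and 2.39, and the second was low in dtg 4, at 3.53 against 3.97 to 4.22. Differences between groups were -0.14 (SE 0.16) and -0.12 (SE 0.27) for these Ldha probes, and -0.12 (SE 0.20) for the second Hk1 probe. All probes of both genes thus gave differences within their errors, while the order of the hearts in Ldha depended on the probe.

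**Figure D3:**
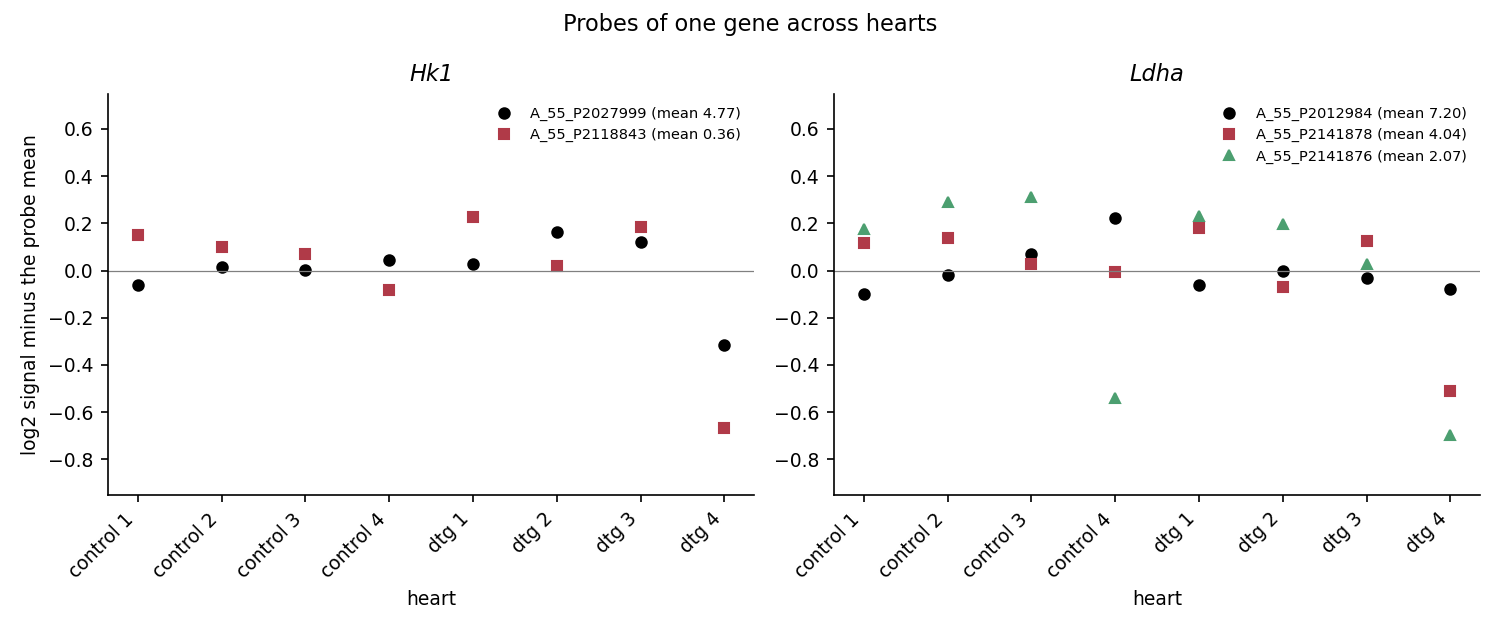
Log2 signal of each probe of Hk1 (2 probes) and Ldha (3 probes) minus that probe's mean over the 8 hearts, by heart. Both Hk1 probes are lowest in dtg 4, and the third Ldha probe is low in control 4 and dtg 4 while the brightest Ldha probe is highest in control 4.

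A log2 ratio of 2 probes within one heart does not depend on a constant subtracted per array, such as the 75th percentile or the median, although quantile normalization and background correction do move it. Its change between hearts shows whether 2 forms shifted unequally, but its own value says nothing about which form is more abundant. Such ratios were formed for 6 pairs of a muscle or heart form and its counterpart, and none differed between groups after adjustment over the 6. Ldha relative to Ldhb came closest, with -0.63, -0.60, -0.57 and -0.52 in controls 1 to 4 and -0.65, -0.63, -0.63 and -0.69 in dtg 1 to 4. Of the 4 dtg hearts, 3 lay below all controls and dtg 2 lay just above control 1. The means were -0.58 ± 0.04 and -0.65 ± 0.03 (SD, n = 4 each), a difference of -0.070 (two-sided exact permutation p = 0.0571, adjusted p = 0.343, where the smallest possible p is 0.0286). The difference stayed below 0 in all 16 alternatives tried for it, between -0.098 and -0.038, with unadjusted exact p from 0.0286 (without control 1) to 0.486 (mean of all kept probes). It was 0.114 with quantile normalization, 0.143 with normexp with or without dark spots, and 0.3 on the 5 hearts other than control 4, dtg 3 and dtg 4. With the other Ldha probes the difference was -0.12 (exact p = 0.6) and -0.10 (exact p = 0.457).

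The remaining ratios differed by less than their spread. GLUT4 relative to GLUT1 was 5.21, 5.20, 5.15 and 4.81 in controls 1 to 4 and 5.43, 5.18, 5.61 and 4.89 in dtg 1 to 4 (difference 0.19, exact permutation p = 0.371, adjusted p = 0.743). It was low in control 4 and dtg 4, the hearts where Slc2a1 was high. Hk2 relative to Hk1 was likewise highest in control 4 and dtg 4, at -0.62 and -0.70, with the others between -1.26 and -1.02 (difference -0.011, exact permutation p = 0.914, adjusted p = 0.914). Pgam2 relative to Pgam1, the form of most tissues, differed by 0.16 (exact permutation p = 0.286, adjusted p = 0.743), and Pfkm relative to the liver form Pfkl by 0.089 (exact permutation p = 0.543, adjusted p = 0.814). Eno3 relative to Eno1 varied most, from 2.57 to 3.83 in controls and from 2.70 to 3.32 in dtg hearts (difference 0.021, exact permutation p = 0.914, adjusted p = 0.914).

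**Figure D4:**
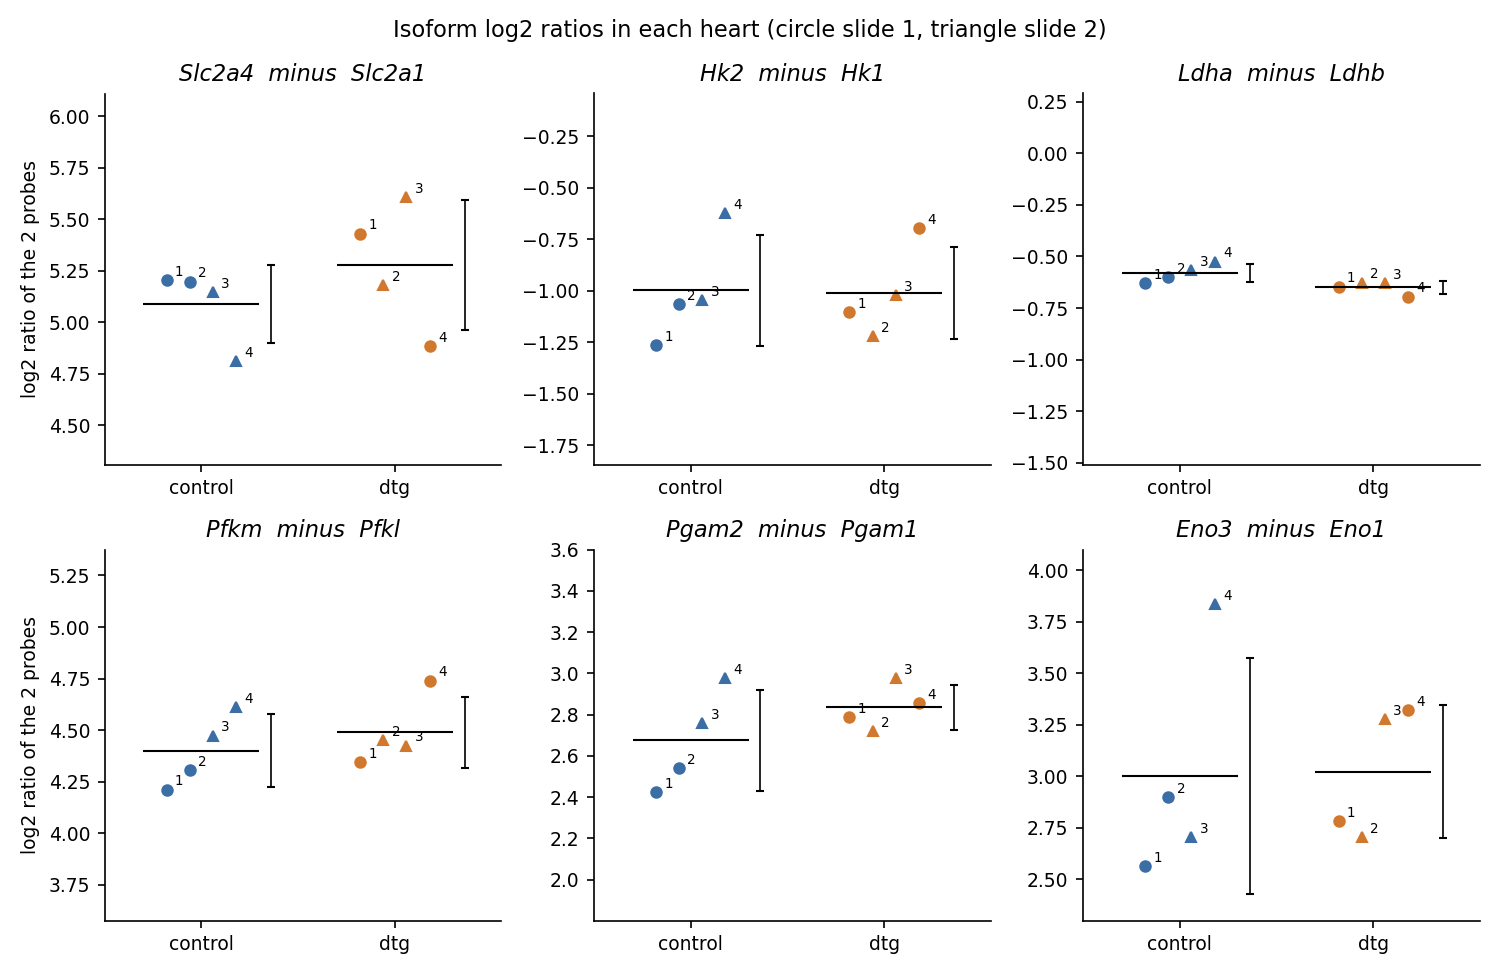
Log2 ratio of 2 probes in each heart for 6 pairs of forms, with equal scale height, controls in blue and dtg in orange, numbered by replicate (circle for slide 1, triangle for slide 2); lines are means and bars SD (n = 4). Ldha minus Ldhb varies least, between -0.69 and -0.52, and Eno3 minus Eno1 most.

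The hearts in which these genes were highest or lowest depended in part on the scaling. With the 75th percentile scaling, 7 of the 10 genes were highest in control 4 and 7 were lowest in control 1, where 22.7% of all features were highest in control 4 and 16.3% lowest in control 1. With quantile normalization 5 of the 10 were highest in control 4 (23.9% of all features), 4 lowest in dtg 4 (14.1%) and 3 lowest in control 1 (15.4%). With normexp background correction all 10 were lowest in control 4 (35.9%), and 7 were highest there (25.4%) once spots darker than their local background were left out. Slc2a1, Slc2a4, Hk2, Eno3 and Ldha were highest in control 4 with both the 75th percentile and quantile normalization. All 10 genes had a higher mean on slide 2 than on slide 1, by between 0.055 and 0.22, and for 9 of them this difference was larger than that between dtg and control. After quantile normalization 9 of 10 were higher on slide 2 and for 6 the slide difference was the larger. With median scaling all 10 were higher there, by between 0.345 and 0.512, and for all 10 the slide difference was the larger. With normexp background correction 0 were higher there and for 0 was it the larger. The share of all features higher on slide 2 is not given here. These counts are therefore not shown to be particular to the 10 genes. Slide is the array carrier, and each slide held both groups.

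**Figure D5:**
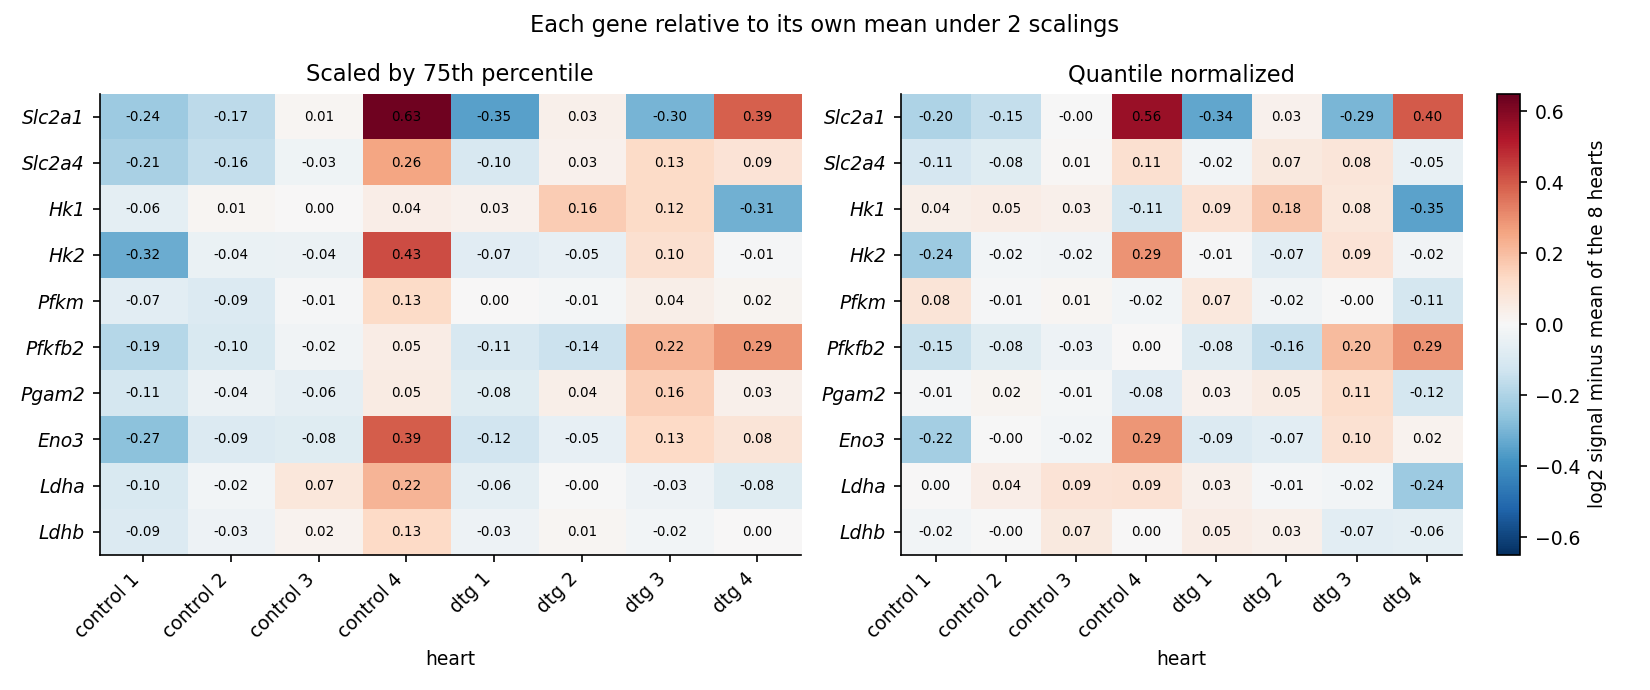
Signal of each gene in each heart relative to the gene's own mean over the 8 hearts (log2), after scaling by the 75th percentile (left) and after quantile normalization (right), red above and blue below the mean. Control 4 is above the mean for all 10 genes on the left, and on the right the high values that remain there are those of Slc2a1, Hk2 and Eno3 foremost.

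Slc2a1 and Hk2 had the widest ranges of the 10 over the 8 hearts, 1.98-fold and 1.68-fold. Among 14787 features with a symbol and a value in every heart, the profiles most like that of Slc2a1 were those of Rpl9 (Pearson's r = 0.994 over 8 hearts), Txnrd3 (0.993), Cys1 (0.992), Dcun1d1 (0.99) and Arcn1 (0.985). For Hk2 they were Acot13 (r = 0.985 over 8 hearts), Trpc4ap (0.983), Pitrm1 (0.983), Nudt9 (0.981) and Trim25 (0.98). These are the highest of many values, share the scaling of the arrays and carry no test.

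Other genes listed with the path gave the same picture. The list of 26 held mostly glycolysis enzymes, and some genes that act against or outside the path, such as Fbp2. Of the 26 genes 23 were measured, 13 with a higher and 10 with a lower mean in dtg hearts (median 0.011). Limma called 0 of the 23, and 0 had an unadjusted p under 0.05, against 0.743% of all features. Gapdh, the dehydrogenase at mid-path, averaged 8.66 ± 0.07 and 8.71 ± 0.03 in the 2 groups (SD, n = 4 each). The smallest unadjusted p of this list belonged to Fbp2, the muscle fructose bisphosphatase (-0.21, SE 0.14), and Bpgm, which makes 2,3-bisphosphoglycerate (0.20, SE 0.16). Bpgm is abundant in red cells, and the summed signal of the 5 erythroid markers measured ran from 527 to 962 in controls and from 769 to 1020 in dtg hearts; their part in the Bpgm value was not tested.

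Carriers and regulators did not stand out either. Of 18 genes listed with glucose, lactate and pyruvate carriers 15 were measured (6 higher, 9 lower, median -0.017). Not all of the 18 carry these substances themselves. Of 20 genes of GLUT4 traffic 20 were measured (8 higher, 12 lower, median -0.024). Of 20 regulators of glycolysis genes 20 were measured (7 higher, 13 lower, median -0.0056). Limma called 0 in each list and 0 reached an unadjusted p under 0.05, against 0.743% of all features. Slc16a7, the monocarboxylate carrier MCT2, ran from -1.90 to -1.18 in control hearts and was -1.74, -0.89, -1.12 and -0.084 in dtg 1 to 4 (0.65, SE 0.34). Slc2a13, a myo-inositol carrier, differed by -0.25 (SE 0.22). Among GLUT4 traffic genes, Rab8a differed by -0.18 (SE 0.17) and the motor protein gene Myo1c by -1.50 (SE 1.24), the latter with 7 hearts between 2.04 and 2.70 and dtg 4 at -3.49, a dip that its dimmer second probe did not share (-2.94, others -4.65 to -2.60). Of the regulators, Myc and Mef2d had the smallest p, at 0.19 (SE 0.11) and -0.18 (SE 0.13), and Hif1a, the hypoxia factor, differed by 0.040 (SE 0.12). None of these passed limma's test (adjusted p = 1 for each). In RNA of heart tissue, fewer cells of a type and less RNA per cell cannot be told apart.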

How the data were processed

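RNA from 4 control and 4 dtg hearts was labelled with Cy3 (100 ng total RNA per sample) and hybridised to 1-colour mouse arrays, per the labels' protocols. The submitters' processing notes name Agilent Feature Extraction 10.7.3.1. Per spot, the authors deposited a background-subtracted signal on a linear intensity scale. The deposited log2 table matched quantile normalized signals centred on each probe's median (found from the values: r per array from 0.9999 to 1.0000; column medians -0.015, -0.017, 0.032 and 0.018 for controls, 0.0051, 0.0069, -0.032 and -0.0094 for dtg).

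Control and outlier spots were left out, log2 signals of a probe's spots were averaged and the 75th percentile of each array over 39429 probes was subtracted. Probes were named through unversioned RefSeq accessions in a GRCm38.p6 table (26369 matched). A probe was kept if well above background on at least 4 arrays (26095 were), and the probe with the highest mean stood for a gene, giving 21412 features. Between 59.1% and 71.4% of probes lay well above background, and precision rests on how few arrays there are. Limma 3.58.1 (R 4.3.3, lmFit and eBayes, no covariates) compared dtg with control, with Benjamini-Hochberg adjustment over all features at 0.05; the fit was tested on simulated data. Ratios were compared by exact permutation. Named are all 10 genes, the 2 smallest p of each pathway list, the 5 features most alike in profile for the 2 genes of widest range, and, outside that rule, Gapdh, Hif1a, Igf1r, the ratio partners Pfkl, Pgam1 and Eno1, and marker genes (Myh6, Acta1, Atp2a1, Acta2, Hbb-b2 and the skeletal markers not kept), some chosen after their values were seen. Genes and lists were chosen with earlier results of these data known. The marker lists whose medians the results do not give had median differences of -0.080 (smooth muscle), -0.040 (fibroblasts), 0.0015 (leukocytes), -0.050 (endothelium) and 0.0085 (heart muscle). Alternatives were normexp (offset 50, on pixel medians), quantile and median scaling, 2 other filters, the mean of probes, the deposited values, slide and replicate number as blocks, each slide alone, and leaving out each sample; normexp without dark spots and the fit on the 5 hearts other than control 4, dtg 3 and dtg 4 were chosen after seeing the data.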

Additional observations from a re-analysis of the deposited data

Results flagged for a closer look

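The ratio of Slc2a4 to Slc2a1 in control 4 was 4.81 on the log2 scale, far from the other 3 control hearts, which lay between 5.15 and 5.21. Of the 32 sets of 4 hearts examined in this way (10 genes and 6 ratios in 2 groups) this was the 1 that stood out, and chance marks about 1 in 20.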

How the results depend on the processing

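With all 21 alternatives limma called 0 features and 0 of the 10 genes. The smallest adjusted p was 0.553, within slide 2. Features at an unadjusted p under 0.05 numbered 159 with the chosen processing, 13 with normexp as planned, 102 with normexp without dark spots, 194 with quantile normalization, 413 without a filter, 251 with slide as a block, 728 and 496 within slides 1 and 2, 665 on the 5 hearts other than control 4, dtg 3 and dtg 4, and from 98 (dtg 3 left out) to 329 (dtg 2 left out) with 1 heart fewer, with 279 for control 3 and 258 for dtg 1. Differences of the 10 genes, all small against their errors, changed sign in 39 of 210 recomputed values, and the isoform ratios in 16 of 96; beyond the settings' own construction the cause was not tested. With normexp background correction the turned values were 0.065 for Slc2a1, 0.25 for Hk1, 0.25 for Hk2, 0.20 for Ldha and 0.25 for Ldhb. Within slide 1 the turned values were 0.22 for Slc2a1, 0.14 for Hk2, 0.045 for Ldhb, -0.044 for Slc2a4 over Slc2a1 and 0.26 for Hk2 over Hk1. With median scaling the turned values were -0.0098 for Slc2a4, -0.058 for Pfkm, -0.0027 for Pgam2 and -0.060 for Eno3. Within slide 2 the turned values were -0.038 for Slc2a4, 0.12 for Hk1, -0.047 for Pfkm, -0.12 for Eno3, -0.11 for Pfkm over Pfkl, -0.019 for Pgam2 over Pgam1 and -0.28 for Eno3 over Eno1. On the 5 hearts other than control 4, dtg 3 and dtg 4, in a fit that has slide as a block, the turned values were 0.097 for Hk1, 0.058 for Hk2, -0.030 for Pfkfb2 and 0.011 for Ldhb. With quantile normalization the turned values were -0.036 for Pfkm, -0.020 for Eno3 and -0.016 for Eno3 over Eno1. With the deposited values the turned values were -0.038 for Pfkm, -0.013 for Eno3 and -0.0068 for Eno3 over Eno1. With the mean of all kept probes the turned values were 0.048 for Hk2 over Hk1. Leaving out each heart in turn gave -0.27 to 0.074 for Slc2a1, -0.055 to 0.10 for Hk1, -0.12 to 0.13 for Hk2, -0.0056 to 0.067 for Pfkm, -0.066 to 0.15 for Eno3, -0.049 to 0.024 for Ldhb, -0.12 to 0.11 for Hk2 over Hk1 and -0.12 to 0.30 for Eno3 over Eno1. The planned normexp fit placed the background of control 4 at -1740 and of dtg 4 at -462 intensity units. Between 1 and 12 spots darker than their local background were present on 5 arrays. Without such spots the fitted background lay between 8.49 and 11.4 on all arrays. All 10 differences then had the same sign as with the chosen processing. Whether the replicate numbers of the labels pair the hearts is not known. The correlations of deviations (0.54, -0.54, 0.15 and 0.16) differed in sign and are too few to decide it. With the replicate block limma called 0 features, with 277 at an unadjusted p under 0.05 and the same 10 differences as without it.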
